A study of Mus musculus with 62 samples.

Results

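Substantia nigra was taken at postnatal day 21 (P21) from mice labelled cKO, in which the gene Nova1 is knocked out in inhibitory neurons, and from mice labelled cHet, which stand as the comparison genotype. These 8 libraries (4 cKO and 4 cHet) were chosen by the region and genotype in their titles and are 8 of the 62 samples of the study, which also holds hypothalamus, periaqueductal gray and caudate putamen of both genotypes at P21 and ribosome-bound RNA of whole brain at P0. Poly(A) RNA of the whole dissected region, from mice on a BL6 background, was sequenced as bulk tissue, so fewer cells of a type and less RNA per cell cannot be told apart. The labels spell out neither cHet nor the Cre line used for this region, and do not say which alleles or transgenes the cHet mice carry, whether replicates are separate animals or whether the regions came from the same mice. All p-values therefore measure the spread between these samples, which may be technical.

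NOVA1 is a neuronal RNA-binding protein that binds clusters of YCAY in pre-mRNA and steers alternative splicing, above all of transcripts for inhibitory synapses and axon guidance. The substantia nigra combines dopaminergic neurons, which send their axons to the striatum, with fast-spiking GABAergic output neurons of the pars reticulata that carry the signal of the basal ganglia to thalamus, midbrain and brainstem. Tags were counted per whole gene, so the values are levels of all transcripts of a gene and say nothing of its exons.

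The libraries held 17.3 to 19.2 M (mega) tags in cKO and 17.5 to 24.3 M tags in cHet, with 17327 to 17503 genes detected in cKO and 17148 to 17414 in cHet. Ribosomal RNA, counted as Rn45s, made up 0.645% to 0.860% of the cKO and 0.472% to 0.851% of the cHet tags. The share of genes with a fractional tag number was 4.58% to 7.01% in cKO and 7.14% to 10.5% in cHet, which do not overlap. Its part in the results was not tested beyond keeping the fractions in the fit, which called the same 1457 genes. No 2 of the libraries were copies of each other, since every pair differed by a chi-square of at least 5.59 per gene. In a principal component analysis of log2 levels, the first component (31.7% of the variance) had negative scores for the 4 cKO libraries and positive scores for the 4 cHet libraries.

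Nova1, the targeted gene, lies on chromosome 12 from 46697895 to 46819480 on the minus strand (RefSeq, GRCm38.p6). It measured 48.9, 42.7, 43.4 and 26.2 CPM in cKO libraries 1 to 4, against 86.1, 90.5, 88.1 and 89.7 CPM in cHet libraries 1 to 4, as tags per M of TMM-scaled library size (CPM). Every cKO library lay below every cHet library, and cKO 4 was the lowest. The mean was 40.3 ± 9.78 CPM in cKO and 88.6 ± 1.95 CPM in cHet (SD, n = 4 each). The change passed the edgeR quasi-likelihood F test with Benjamini-Hochberg adjustment, which serves for all adjusted p-values here (log2 fold change -1.14, SE 0.13, adjusted p = 0.000415). Its paralog Nova2, which binds the same RNA motif, was higher: 85.2, 96.6, 91.1 and 99.7 CPM in cKO libraries 1 to 4, against 74.7, 73.2, 81.4 and 70.4 CPM in cHet libraries 1 to 4 (log2 fold change 0.31, SE 0.07, adjusted p = 0.0147). The cKO and cHet values of Nova2 did not overlap.

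Across the transcriptome, 1457 of 14858 genes tested (9.81%) differed between the genotypes at an adjusted p below 0.05. Of these, 646 (4.35%) were higher and 811 (5.46%) lower in cKO. The changes were small: the median absolute log2 fold change of the called genes was 0.40, 341 changed more than 1.5-fold and 105 more than 2-fold, 70 of these higher and 35 lower. In 1299 of the called genes (89.2%) the 4 cKO and the 4 cHet values did not overlap, against 2369 of all genes tested (15.9%). The number of calls depended on single libraries: it was 779 without cKO 1, 705 without cKO 2, 744 without cHet 1 and 921 without cHet 2, and lay between 1142 and 1483 on leaving out any other.

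**Figure D1:**
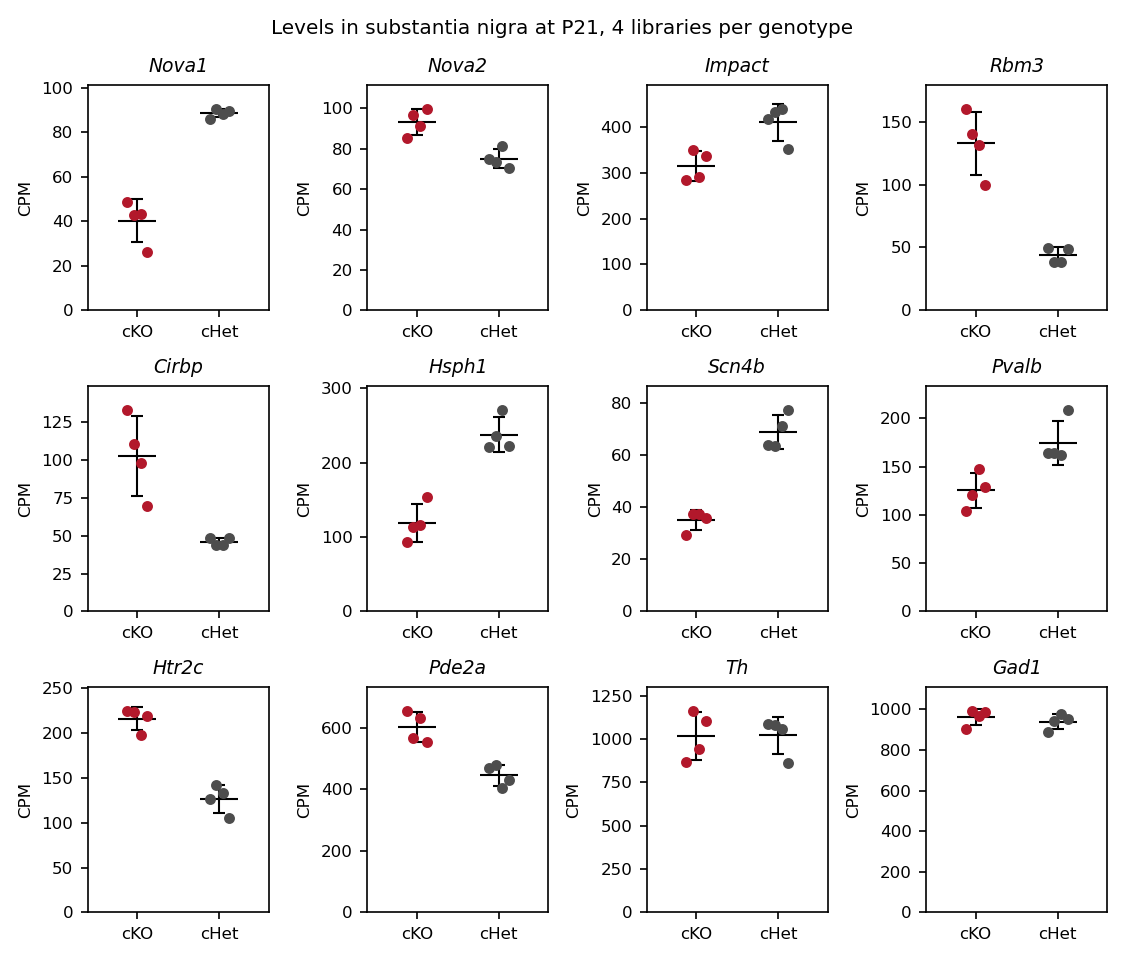
Levels in tags per M of scaled library size (CPM, linear axes from 0) of 12 genes in the 4 cKO (red, left) and the 4 cHet (grey, right) substantia nigra libraries; black lines are the mean and its bars the SD. Nova1, Impact, Hsph1, Scn4b and Pvalb are lower in every cKO library than in any cHet library, Nova2, Rbm3, Cirbp, Htr2c and Pde2a higher, and Th and Gad1 overlap.

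Markers of the dissected region were present in every library. Th, the rate-limiting enzyme of dopamine synthesis, measured 1019 ± 138 CPM in cKO and 1021 ± 106 CPM in cHet (SD, n = 4 each). The dopamine transporter gene Slc6a3 measured 1718 ± 275 CPM in cKO and 1828 ± 228 CPM in cHet, and the vesicular monoamine transporter gene Slc18a2 516 ± 105 CPM in cKO and 488 ± 70.97 CPM in cHet. Genotypes overlapped widely for all 3, and none passed the test. The GABA-synthesising enzymes Gad1, with 963 ± 40.4 CPM in cKO and 939.6 ± 36.7 CPM in cHet, and Gad2, with 217 ± 14.7 CPM in cKO and 217 ± 24.2 CPM in cHet, did not pass it either.

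Of 26 dopaminergic markers tested, 1 was lower in cKO and 25 did not pass (4 of the 26 had an unadjusted p below 0.05). The share called was 3.85%, beside 9.81% of all genes tested. The summed level of the 26 markers was 5769 to 7882 CPM in cKO and 6206 to 7948 CPM in cHet. The lower one was Ntsr1, the neurotensin receptor of dopaminergic neurons, with 30.1, 39.2, 40.7 and 44.6 CPM in cKO libraries 1 to 4, against 59.2, 60.2, 58.5 and 53.7 CPM in cHet libraries 1 to 4 (log2 fold change -0.58, SE 0.10, adjusted p = 0.00343). All 4 cKO values of Ntsr1 were below the 4 cHet values. The list's median log2 fold change was -0.06, against 0.00 for all genes tested. The count of lower markers was 4 without cHet 4, 2 without cKO 2 and 2 without cKO 4.

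The 12 largest rises among called genes with at least 5 CPM in a genotype and no overlap included Rbm3 and Cirbp, which are described with the heat-shock genes. Expression of Otoa, the gene of otoancorin, known from the inner ear, was 8.39, 5.20, 6.11 and 6.76 CPM in cKO libraries 1 to 4, against 1.66, 1.82, 1.48 and 2.30 CPM in cHet libraries 1 to 4 (log2 fold change 1.87, SE 0.21, adjusted p = 0.000298). Every cKO value was above every cHet value, which the rule of no overlap requires. Another 7 genes, with log2 fold changes from 1.04 to 1.53, were the mucin gene Muc1, 2900002K06Rik, the calcitonin receptor gene Calcr, Cntnap3, the phospholipase gene Pla2g4e, the noncoding RNA Rmst and Lsp1. 2900002K06Rik overlaps Rbm3 on the X chromosome, and how strand was used in counting is not given in the sources used here, so its 13.03 ± 2.92 CPM in cKO and 4.59 ± 0.608 CPM in cHet cannot be told apart from Rbm3 reads.

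The 12 largest falls under the same rule included Nova1. Adamtsl4, which codes for a microfibril-associated matrix protein, measured 7.59, 5.93, 9.86 and 10.1 CPM in cKO libraries 1 to 4, against 21.9, 20.6, 23.2 and 26.4 CPM in cHet libraries 1 to 4 (log2 fold change -1.46, SE 0.15, adjusted p = 0.000261). Fcrls, a gene of resident microglia, measured 19.7, 23.4, 35.3 and 34.7 CPM in cKO libraries 1 to 4, against 57.6, 58.5, 63.9 and 65.5 CPM in cHet libraries 1 to 4 (log2 fold change -1.12, SE 0.15, adjusted p = 0.000633). In both, cKO and cHet values did not overlap, which the rule requires. The other 9, with log2 fold changes from -1.25 to -1.01, were Smtnl2, the sphingosine-1-phosphate phosphatase gene Sgpp2, the type II collagen gene Col2a1, Olfml3, the chondromodulin gene Lect1, Dock5, Cpxm2, the integrin gene Itgb4 and Enpp1. Every call of the genes named here from these rises and falls held in each fit with a library left out. The rule picked these genes in the same libraries for large changes without overlap, so this is no independent check.

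The cold-inducible genes Rbm3 and Cirbp rose, and 13 of 21 genes of the cytosolic chaperone list fell. RBM3 and CIRBP are RNA-binding proteins whose synthesis rises on mild cooling, while HSF1 drives the genes of cytosolic chaperones on heat and protein damage. Rbm3 measured 160.3, 140.2, 131 and 99.9 CPM in cKO libraries 1 to 4, against 49.9, 38.6, 38.6 and 48.7 CPM in cHet libraries 1 to 4 (log2 fold change 1.60, SE 0.13, adjusted p = 4.9e-05). Cirbp measured 133, 110.3, 98.1 and 69.4 CPM in cKO libraries 1 to 4, against 48.2, 44.1, 43.8 and 48.2 CPM in cHet libraries 1 to 4 (log2 fold change 1.16, SE 0.14, adjusted p = 0.000439). Both were highest in cKO 1 and, within the genotype, lowest in cKO 4, which still stood above every cHet library.

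Of 21 genes of the cytosolic chaperone list tested, 13 were lower in cKO and 8 did not pass, with a median log2 fold change of -0.32, while 5.46% of all genes tested were lower. The list also holds the transcription factor gene Hsf1 and the mitochondrial chaperonin genes Hspd1 and Hspe1. Of these, Hsf1 and Hspd1 were among the 13. This list and those below were chosen with earlier results of these data known, so such shares describe the lists and test nothing. Hsph1, a co-chaperone of HSP70, measured 93.6, 113, 116 and 154 CPM in cKO libraries 1 to 4, against 222, 236, 271 and 222 CPM in cHet libraries 1 to 4 (log2 fold change -0.996, SE 0.12, adjusted p = 0.000423). Chordc1, a co-chaperone of HSP90, measured 27.1, 30.5, 35.4 and 53.9 CPM in cKO libraries 1 to 4, against 57.1, 67.4, 71.97 and 74.8 CPM in cHet libraries 1 to 4 (log2 fold change -0.88, SE 0.16, adjusted p = 0.00503). Among the cKO libraries both were lowest in cKO 1 and highest in cKO 4, the reverse of Rbm3 and Cirbp, and neither overlapped with cHet. The transcription factor gene Hsf1 itself measured 22.5 ± 2.67 CPM in cKO and 31.98 ± 1.77 CPM in cHet (SD, n = 4 each; log2 fold change -0.50, SE 0.09, adjusted p = 0.00503).

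The abundant members had smaller fold changes. Hspa8, the constitutive HSP70, measured 960.2 ± 72.6 CPM in cKO and 1198 ± 57.6 CPM in cHet (log2 fold change -0.32, SE 0.07, adjusted p = 0.0104). Hsp90aa1, an HSP90 gene, measured 731 ± 48.2 CPM in cKO and 898 ± 29.2 CPM in cHet (log2 fold change -0.30, SE 0.06, adjusted p = 0.0109). Stip1, which couples both chaperones, fell by 0.41 on the log2 scale and the small heat-shock gene Cryab by 0.59. The inducible HSP70 genes Hspa1a and Hspa1b are near-identical copies whose reads the counting could split, so their values (0.716 ± 0.263 CPM in cKO and 1.56 ± 0.437 CPM in cHet for Hspa1a, and 0.431 ± 0.312 CPM in cKO and 1.25 ± 0.674 CPM in cHet for Hspa1b) are uncertain. Hspa1a was among the 13 called lower (adjusted p = 0.0483). Its call was lost when any library other than cHet 4 was left out, with a replicate block and without a filter. Serpinh1, the collagen chaperone HSP47, which is outside the list and was picked after its values were seen, measured 27.1 ± 3.81 CPM in cKO and 45.3 ± 3.82 CPM in cHet (log2 fold change -0.74, SE 0.10, adjusted p = 0.000774). On leaving out single libraries, 9 to 13 genes of the chaperone list were lower.

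In the endoplasmic reticulum, 9 of 26 genes of the unfolded protein response were lower and 17 did not pass (median log2 fold change -0.13). Calr, the lectin chaperone calreticulin, measured 376, 429, 430.2 and 506 CPM in cKO libraries 1 to 4, against 561, 614, 594 and 599 CPM in cHet libraries 1 to 4 (log2 fold change -0.44, SE 0.08, adjusted p = 0.00427). Hsp90b1, the reticular HSP90, measured 335, 363, 369.6 and 423 CPM in cKO libraries 1 to 4, against 469, 517, 507 and 482 CPM in cHet libraries 1 to 4 (log2 fold change -0.41, SE 0.07, adjusted p = 0.00424). Neither overlapped between the genotypes. Hspa5, the reticular HSP70 known as BiP, measured 232 ± 28.03 CPM in cKO and 309 ± 47.2 CPM in cHet with overlapping values (log2 fold change -0.42, SE 0.10, adjusted p = 0.0227), and lost its call without cKO 1, cKO 2, cKO 3 or cHet 2 (adjusted p = 0.0508 to 0.0725). The others that fell were Sdf2l1, Creld2, Pdia4, Pdia6, Hyou1 and Atf6b, of which Sdf2l1 lost its call without cKO 1, cKO 2, cHet 1, cHet 2 or cHet 4. The count was 5 without cKO 1, cKO 2 or cHet 2.

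Promoters of the falling genes are shown because they carry matches to the elements through which these pathways are known to act. Each run gives the 250 bases before the start of the gene from RefSeq (GRCm38.p6), read 5′ to 3′ in the direction of the gene, with matches to the searched motif on either strand in capitals: the ERSE (CCAAT and CCACG with 9 free bases between them), which ATF6 and XBP1 bind, in Hsp90b1, Calr and Hspa5; the heat-shock element (GAA, TTC and GAA, each 2 free bases apart), which HSF1 binds, in Hspd1; and the sterol element TCACNCCAC, which SREBP binds, in Hmgcs1. Hsp90b1 lies at chr10:86705445-86705694, minus strand, Calr at chr8:84846932-84847181, minus strand, Hspa5 at chr2:34771840-34772089, plus strand, Hspd1 at chr1:55087933-55088182, minus strand and Hmgcs1 at chr13:119690101-119690350, plus strand.
Hsp90b1: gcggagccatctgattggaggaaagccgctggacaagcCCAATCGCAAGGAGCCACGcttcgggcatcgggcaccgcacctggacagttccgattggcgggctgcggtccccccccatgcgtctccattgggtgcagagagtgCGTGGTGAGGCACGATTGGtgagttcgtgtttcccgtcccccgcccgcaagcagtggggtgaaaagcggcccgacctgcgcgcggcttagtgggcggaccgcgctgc
Calr: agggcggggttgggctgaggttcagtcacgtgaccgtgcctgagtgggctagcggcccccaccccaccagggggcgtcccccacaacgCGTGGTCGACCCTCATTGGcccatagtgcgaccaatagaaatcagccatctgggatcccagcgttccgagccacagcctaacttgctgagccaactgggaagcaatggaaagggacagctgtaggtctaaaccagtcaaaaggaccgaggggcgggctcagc
Hspa5: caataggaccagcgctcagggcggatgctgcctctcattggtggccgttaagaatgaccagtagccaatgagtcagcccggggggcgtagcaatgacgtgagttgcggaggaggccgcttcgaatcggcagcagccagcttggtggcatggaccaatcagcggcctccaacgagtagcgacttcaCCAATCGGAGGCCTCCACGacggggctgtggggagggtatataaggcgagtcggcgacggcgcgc
Hspd1: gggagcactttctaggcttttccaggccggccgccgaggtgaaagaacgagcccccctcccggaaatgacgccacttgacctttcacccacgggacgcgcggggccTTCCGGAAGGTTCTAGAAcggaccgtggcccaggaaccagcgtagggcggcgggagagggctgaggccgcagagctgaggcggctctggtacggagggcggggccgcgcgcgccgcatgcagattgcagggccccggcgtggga
Hmgcs1: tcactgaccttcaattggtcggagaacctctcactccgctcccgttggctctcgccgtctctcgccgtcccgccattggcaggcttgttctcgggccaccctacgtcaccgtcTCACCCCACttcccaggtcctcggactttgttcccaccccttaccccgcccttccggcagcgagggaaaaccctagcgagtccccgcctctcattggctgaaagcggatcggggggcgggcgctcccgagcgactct
Searched from 250 bases before to 50 bases after the start, the ERSE was in 0.119% of 32851 promoters and in 0.187% of the 11734 tested genes that matched one. It was in 9 of 22 matched genes of the unfolded protein response list, and in 5 of the 8 matched members that fell. The heat-shock element was in 0.571% of the matched tested genes, in 4 of 16 matched genes of the chaperone list and in 3 of the 8 that fell (Hsph1, Chordc1 and Hspd1). The sterol element was in 1.38% of the matched tested genes and in 1 of 20 matched cholesterol genes. The 2 matches in Hspd1 overlap each other, and the heat-shock motif was picked after the values were seen. A match describes letters in this window and is neither a site nor a cause.

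Genes of cholesterol synthesis that passed the test fell. The enzymes are under control of SREBP2, which raises them when membranes lack sterol, and at this age oligodendrocytes use much of the product for myelin. Of 27 genes tested, 16 were lower and 11 did not pass, with a median log2 fold change of -0.30 and a summed level of 3208 to 3822 CPM in cKO and 4102 to 4732 CPM in cHet. Hmgcs1, which makes HMG-CoA, measured 782, 928, 927 and 919 CPM in cKO libraries 1 to 4, against 1157, 1082, 1326 and 1311 CPM in cHet libraries 1 to 4 (log2 fold change -0.46, SE 0.08, adjusted p = 0.00391). Dhcr7, the last enzyme of the pathway, measured 61.6, 78.5, 72.2 and 77.6 CPM in cKO libraries 1 to 4, against 101, 101, 106 and 113 CPM in cHet libraries 1 to 4 (log2 fold change -0.54, SE 0.08, adjusted p = 0.00144). In both, every cKO library lay below every cHet library.

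The regulator gene Srebf2 measured 234 ± 3.98 CPM in cKO and 287 ± 23.6 CPM in cHet (log2 fold change -0.29, SE 0.07, adjusted p = 0.014). Abca1, the exporter that LXR induces when sterol is plentiful, was outside the list and picked after its values were seen; it was higher, at 244 ± 21.7 CPM in cKO and 159 ± 15.4 CPM in cHet (log2 fold change 0.61, SE 0.08, adjusted p = 0.000633). The count of lower genes was 8 without cKO 1, 10 without cKO 3, 9 without cHet 1 and 9 without cHet 4.

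Genes of ion channels were called in both directions, among them Scn4b and Kcng4, which fell. Neurons of the pars reticulata fire at high sustained rates, for which resurgent sodium current and fast Kv3 potassium channels are known to be needed. Scn4b, the beta-4 sodium channel subunit that gives resurgent current, measured 29.4, 37.4, 37.3 and 36.04 CPM in cKO libraries 1 to 4, against 63.8, 63.5, 71.04 and 77.4 CPM in cHet libraries 1 to 4 (log2 fold change -0.98, SE 0.09, adjusted p = 0.000178). Kcng4, a modulatory Kv subunit, measured 20.3, 25.2, 37.3 and 26.03 CPM in cKO libraries 1 to 4, against 49.02, 44.2, 49.8 and 56.02 CPM in cHet libraries 1 to 4 (log2 fold change -0.87, SE 0.14, adjusted p = 0.00231). Neither overlapped between the genotypes.

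Of 48 potassium and pacemaker channel genes, 10 were lower and 3 higher (median -0.10). Their summed level was 2472 to 2706 CPM in cKO and 2888 to 3116 CPM in cHet. Hcn2, a pacemaker channel, measured 147 ± 7.34 CPM in cKO and 211 ± 14.8 CPM in cHet (log2 fold change -0.52, SE 0.07, adjusted p = 0.000588). Kcna6, which codes for Kv1.6, measured 88.3 ± 10.04 CPM in cKO and 134 ± 6.74 CPM in cHet (log2 fold change -0.60, SE 0.08, adjusted p = 0.000693). Kcnc1, which codes for Kv3.1, fell by 0.28 and the auxiliary subunit gene Kcnab2 by 0.33 on the log2 scale. Among the others that fell were Kcna2, Kcnn1, Hcn3 and Kcnip3, while the 3 that rose were Kcns2, Kcnd2, which codes for the A-type channel Kv4.2, and its partner Kcnip1. Those 7 all lost the call without cKO 1 (adjusted p = 0.0631 to 0.138) or without cHet 1 (adjusted p = 0.0554 to 0.103). In each case 6 channel genes were lower.

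Of 13 sodium channel genes, 2 were lower, Scn4b and Scn8a, and 1 was higher. Scn8a, which codes for the axonal channel Nav1.6, measured 186 ± 4.49 CPM in cKO and 223 ± 11.2 CPM in cHet (log2 fold change -0.26, SE 0.06, adjusted p = 0.0145). Of 18 calcium channel genes, 1 was lower, the T-type channel gene Cacna1i with 18.7 ± 1.91 CPM in cKO and 30.03 ± 4.14 CPM in cHet (log2 fold change -0.68, SE 0.11, adjusted p = 0.00226). Another 2 were higher, the auxiliary subunit gene Cacnb3 with 64.3 ± 7.48 CPM in cKO and 47.7 ± 3.18 CPM in cHet (log2 fold change 0.43, SE 0.09, adjusted p = 0.00867) and Cacng3, whose call was lost without cKO 1, cKO 2 or any cHet library. The share of calcium channel genes called was 16.7%, beside 9.81% of all genes tested.

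Marker genes of GABAergic neurons changed in both directions. Pvalb, which marks fast-spiking neurons, measured 104, 121, 148 and 129 CPM in cKO libraries 1 to 4, against 164, 164, 162 and 209 CPM in cHet libraries 1 to 4 (log2 fold change -0.48, SE 0.10, adjusted p = 0.0131). Calb2, the buffer calretinin, measured 258, 272, 247 and 271 CPM in cKO libraries 1 to 4, against 195, 206, 163 and 143 CPM in cHet libraries 1 to 4 (log2 fold change 0.57, SE 0.10, adjusted p = 0.00321). Pvalb was lower and Calb2 higher in every cKO library than in any cHet library. Slc32a1, which loads GABA into vesicles, measured 134 ± 11.7 CPM in cKO and 159.7 ± 1.66 CPM in cHet (log2 fold change -0.26, SE 0.07, adjusted p = 0.0273), a call lost without cKO 1, cKO 2, cHet 1 or cHet 2. Of 21 GABAergic markers tested, 3 were higher and 2 lower (23.8%, beside 9.81% of all genes tested). Six3, among the higher ones with 34.7 ± 6.37 CPM in cKO and 26.2 ± 2.14 CPM in cHet, lost its call without cKO 2, cKO 3 or any cHet library. The summed level of the list was 4102 to 4167 CPM in cKO and 3822 to 4067 CPM in cHet, which do not overlap. Abundant members weigh most in this sum, which does not describe the list as a whole. Gad1 and Gad2 did not pass the test, and Pvalb and Slc32a1 fell.

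In the lists of extracellular matrix and of axon structure, the genes that passed the test fell. Which cells made these transcripts was not measured. Of 12 genes of the brain extracellular matrix and of perineuronal nets, the matrix that wraps parvalbumin neurons, 5 were lower and 7 did not pass (median -0.35). Hapln4, a link protein of these nets, measured 33.4, 47.9, 50.3 and 41.6 CPM in cKO libraries 1 to 4, against 57.3, 60.5, 60.001 and 67.2 CPM in cHet libraries 1 to 4 (log2 fold change -0.50, SE 0.11, adjusted p = 0.0112). The proteoglycan gene Ncan measured 293 ± 15.03 CPM in cKO and 374 ± 29.9 CPM in cHet (log2 fold change -0.35, SE 0.07, adjusted p = 0.00745). Acan, the aggrecan gene, measured 7.35 ± 0.421 CPM in cKO and 10.7 ± 1.61 CPM in cHet (log2 fold change -0.54, SE 0.13, adjusted p = 0.0193), a call lost without cHet 1 or cHet 4. The others were Hapln2, a link protein of nodes of Ranvier, and Spp1, which codes for osteopontin, and the count was 2 without cHet 4 and 3 without cKO 1, cKO 2 or cKO 3. Of 14 genes of axon structure and nodes of Ranvier, 5 were lower and 9 did not pass (median -0.22). Cntn2, the contactin of the axon beside the node, measured 149.9, 162, 209 and 224 CPM in cKO libraries 1 to 4, against 294, 279, 358 and 327 CPM in cHet libraries 1 to 4 (log2 fold change -0.75, SE 0.12, adjusted p = 0.00191). The neurofilament gene Nefm measured 220.4 ± 21.2 CPM in cKO and 279 ± 10.1 CPM in cHet (log2 fold change -0.34, SE 0.07, adjusted p = 0.0107). Ank1, Ina and Nefl were the others, and the count was 2 without cHet 1 or cKO 1 and 3 without cHet 2.

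At the synapse, called genes of receptors and release moved in both directions. Glra1, the adult glycine receptor subunit, measured 18.5, 18.5, 19.7 and 20.4 CPM in cKO libraries 1 to 4, against 35.5, 37.4, 30.8 and 27.8 CPM in cHet libraries 1 to 4 (log2 fold change -0.77, SE 0.10, adjusted p = 0.000604). Glra2, the subunit that precedes it in development, measured 17.4, 17.4, 14.3 and 15.6 CPM in cKO libraries 1 to 4, against 12.1, 12.5, 12.5 and 8.98 CPM in cHet libraries 1 to 4 (log2 fold change 0.49, SE 0.12, adjusted p = 0.0221), with a call that was lost without cKO 1, cKO 2 or cHet 1. The cKO values lay below the cHet values for Glra1 and above them for Glra2. Gabra4, a GABA receptor subunit of extrasynaptic receptors, measured 38.5 ± 0.877 CPM in cKO and 29.3 ± 3.57 CPM in cHet (log2 fold change 0.39, SE 0.09, adjusted p = 0.0136). Gabrg1, another subunit, measured 59.1 ± 4.51 CPM in cKO and 48.2 ± 3.79 CPM in cHet with overlapping values and lost its call without cKO 1, cKO 2, cKO 4, cHet 1, cHet 2 or cHet 4. Of 26 genes of the inhibitory synapse, the 3 genes Glra2, Gabra4 and Gabrg1 were higher and Glra1 lower, and 1 gene was higher without cKO 2 or cHet 1. The share called was 15.4%, beside 9.81% of all genes tested.

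Syt2, the fast calcium sensor of inhibitory terminals, measured 47.7, 56.7, 48.1 and 55.05 CPM in cKO libraries 1 to 4, against 88.4, 79.5, 112 and 77.1 CPM in cHet libraries 1 to 4 (log2 fold change -0.78, SE 0.11, adjusted p = 0.000952). Syt7, a slow sensor, measured 127 ± 3.001 CPM in cKO and 163 ± 3.10 CPM in cHet (log2 fold change -0.36, SE 0.06, adjusted p = 0.00194). Both sensors were lower in every cKO library than in any cHet library. Rab3b, a vesicle GTPase, measured 19.4, 20.5, 16.1 and 17.7 CPM in cKO libraries 1 to 4, against 11.9, 11.5, 12.5 and 10.7 CPM in cHet libraries 1 to 4 (log2 fold change 0.66, SE 0.10, adjusted p = 0.00226). Synpr, the vesicle protein synaptoporin, measured 42.4 ± 3.02 CPM in cKO and 28.97 ± 2.002 CPM in cHet (log2 fold change 0.55, SE 0.08, adjusted p = 0.00128). Rab3b and Synpr were higher in every cKO library than in any cHet library. Of 43 release genes, 6 were higher and 2 lower (18.6%, beside 9.81% of all genes tested). The other higher ones were Unc13c, Syt6, Vamp2 and Rims2. Without cKO 4 or cHet 4, 5 were lower.

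On the excitatory side, 5 of 36 genes were higher and 3 lower (22.2%, beside 9.81% of all genes tested). Grin2d, the NMDA receptor subunit GluN2D, measured 24.8, 27.1, 28.2 and 26.7 CPM in cKO libraries 1 to 4, against 38.6, 39.4, 38.99 and 33.6 CPM in cHet libraries 1 to 4 (log2 fold change -0.50, SE 0.08, adjusted p = 0.00231). Dlgap1, which codes for a postsynaptic scaffold, measured 162, 162, 153 and 156 CPM in cKO libraries 1 to 4, against 127, 127, 126 and 121 CPM in cHet libraries 1 to 4 (log2 fold change 0.34, SE 0.06, adjusted p = 0.00324). The cKO values were below the cHet values for Grin2d and above them for Dlgap1. The synaptic pentraxins went apart, Nptx1 with 14.2 ± 1.03 CPM in cKO and 21.4 ± 3.18 CPM in cHet (log2 fold change -0.59, SE 0.11, adjusted p = 0.00592), against Nptx2 with 3.41 ± 1.47 CPM in cKO and 1.45 ± 0.193 CPM in cHet (log2 fold change 1.22, SE 0.30, adjusted p = 0.0204). The call of Nptx2 was lost without cKO 1, cKO 2, cHet 1 or cHet 2. The count of higher genes was 1 without cKO 1 and 2 without cKO 2, cHet 1 or cHet 2.

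The peptide genes that passed the test rose, 17.2% of the list beside 9.81% of all genes tested called either way. Of 29 neuropeptide and processing genes tested, 5 were higher and 24 did not pass, with a median log2 fold change of 0.21 and a summed level of 5802 to 6135 CPM in cKO and 4968 to 5396 CPM in cHet. Penk, the precursor of enkephalin, measured 50.99, 42.2, 41.8 and 48.2 CPM in cKO libraries 1 to 4, against 29.9, 29.8, 23.8 and 19.98 CPM in cHet libraries 1 to 4 (log2 fold change 0.82, SE 0.12, adjusted p = 0.00119). Every cKO library exceeded every cHet library. Scg5 and Cpe, which take part in processing, Cbln2, which organises synapses, and Nucb2, the precursor of nesfatin, were the others. Their 4 calls depended on single libraries, and the count was 1 without cKO 2, 2 without cKO 1 and 3 without cKO 3, cHet 1 or cHet 2.

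**Figure D2:**
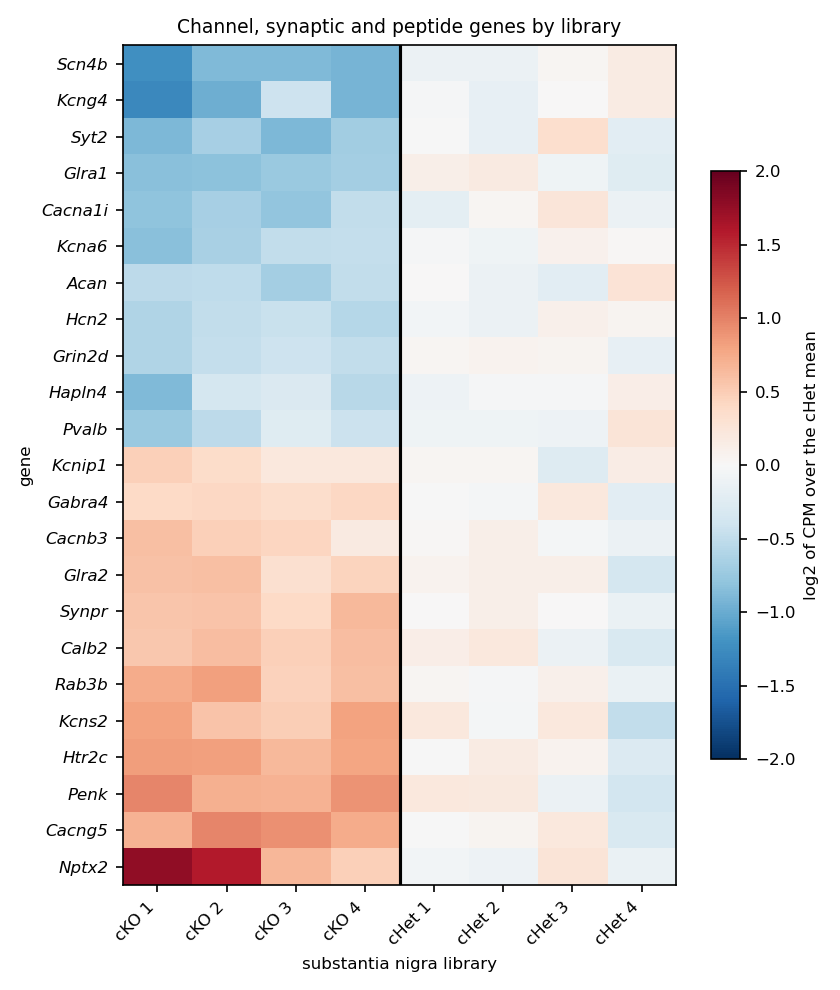
Level of 23 channel, synaptic, matrix and peptide genes, picked after their values were seen, in each cKO library (left of the line) and each cHet library (right), as log2 of CPM over the cHet mean (blue below 0, red above). Scn4b, Kcng4, Syt2 and Glra1 are blue and Rab3b, Htr2c, Penk and Cacng5 red in all 4 cKO libraries.

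Markers of other cell types moved with the genotype in part, and their part in the results above was not tested. Of 30 oligodendrocyte markers, 10 were lower and 20 did not pass (median -0.18). The summed level was 52654 to 60553 CPM in cKO and 53469 to 72488 CPM in cHet, which overlap. Trf, the iron carrier transferrin, measured 1327, 1418, 1788 and 1633 CPM in cKO libraries 1 to 4, against 2551, 2281, 2923 and 3177 CPM in cHet libraries 1 to 4 (log2 fold change -0.83, SE 0.11, adjusted p = 0.000604). Qdpr measured 159.9 ± 11.996 CPM in cKO and 233 ± 19.8 CPM in cHet (log2 fold change -0.55, SE 0.07, adjusted p = 0.000893). Trf and Qdpr did not overlap between the genotypes. Among myelin protein genes, Mobp was lower and did not overlap. It measured 3710 ± 436 CPM in cKO and 5140 ± 708 CPM in cHet (log2 fold change -0.47, SE 0.10, adjusted p = 0.0102). Mbp and Mog did not pass the test. Mbp measured 16665 ± 1209 CPM in cKO and 17683 ± 2277 CPM in cHet (log2 fold change -0.09, SE 0.09, adjusted p = 0.579). Mog measured 915 ± 83.05 CPM in cKO and 925 ± 122 CPM in cHet (log2 fold change -0.02, SE 0.09, adjusted p = 0.938). The count of lower markers was 5 without cKO 1 or cKO 2. Of 7 precursor markers, Gpr17, a receptor of committed precursors, was lower with 293 ± 32.7 CPM in cKO and 391 ± 15.8 CPM in cHet (log2 fold change -0.41, SE 0.08, adjusted p = 0.00503). Lhfpl3 was higher at a log2 fold change of 0.21, a call lost without cKO 1, cKO 2, cKO 3, cHet 1, cHet 2 or cHet 4. The summed level of the precursor markers was 706 to 759 CPM in cKO and 803 to 836 CPM in cHet, which do not overlap. Gpr17 alone held 293 CPM of the mean sum of 731 CPM in cKO and 391 of 820 CPM in cHet. Of the 7 markers, 4 had a log2 fold change above 0 (median 0.02), so the sum does not describe the list as a whole.

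Vascular and connective-tissue markers that passed the test fell. Of 21 endothelial markers, 7 were lower and 14 did not pass (median -0.33), with a summed level of 603 to 675 CPM in cKO and 709.6 to 816 CPM in cHet, which do not overlap. Eng, the TGF-beta co-receptor endoglin, measured 25.98, 20.6, 25.3 and 19.1 CPM in cKO libraries 1 to 4, against 40.5, 37.1, 32.3 and 31.4 CPM in cHet libraries 1 to 4 (log2 fold change -0.64, SE 0.11, adjusted p = 0.00424). Flt1, a VEGF receptor, measured 21.8 ± 2.34 CPM in cKO and 31.2 ± 4.29 CPM in cHet (log2 fold change -0.52, SE 0.11, adjusted p = 0.00919). Without cKO 2 or cHet 1 the count was 2, and without cHet 2 it was 3. Rgs5, a pericyte gene, measured 18.3, 19.3, 20.2 and 22.1 CPM in cKO libraries 1 to 4, against 36.96, 33.6, 37.8 and 28.8 CPM in cHet libraries 1 to 4 (log2 fold change -0.78, SE 0.10, adjusted p = 0.000519). It and Abcc9 were the 2 of 12 pericyte markers that were called, both lower (summed level 175 to 222 CPM in cKO and 219.6 to 278 CPM in cHet). Of 12 fibroblast markers 4 were lower, among them Col1a1 with 51.4 ± 8.03 CPM in cKO and 79.4 ± 12.01 CPM in cHet (log2 fold change -0.63, SE 0.12, adjusted p = 0.00585). The count was 1 without cHet 1 or cHet 2 and 2 without cKO 2, cKO 3 or cKO 4. The summed level was 354 to 533 CPM in cKO and 496 to 744 CPM in cHet. Of 4 haemoglobin and erythroid genes 2 were lower, the near-identical copies Hbb-b1 (log2 fold change -0.76, SE 0.12, adjusted p = 0.00231) and Hbb-b2, with 10.4 ± 1.23 CPM in cKO and 14.9 ± 2.22 CPM in cHet, whose call was lost without cKO 1, cKO 2, cHet 1 or cHet 2.

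Astrocyte and microglial markers were mixed, with shares called of 16% and 15% beside 9.81% of all genes tested. Of 25 astrocyte markers, 2 were higher and 2 lower, with a summed level of 13477 to 15533 CPM in cKO and 13974 to 15310.3 CPM in cHet. Agt, the precursor of angiotensin, measured 849.9 ± 126 CPM in cKO and 603 ± 76.1 CPM in cHet with overlapping values (log2 fold change 0.49, SE 0.11, adjusted p = 0.0112). The glutamate transporter gene Slc1a3 measured 483 ± 26.9 CPM in cKO and 393 ± 17.4 CPM in cHet (log2 fold change 0.30, SE 0.06, adjusted p = 0.00996). Mfge8 and Slc7a10 fell by 0.41 and 0.31 on the log2 scale, the second with a call lost without cKO 1, cKO 2 or cHet 1. Without cKO 3, 5 astrocyte markers were lower. Of 20 microglial markers, Siglech was higher, a call lost when any library other than cKO 2 or cHet 4 was left out, and Fcrls and Itgam were lower. Itgam lost its call without cKO 1, cKO 2, cHet 1, cHet 2 or cHet 3, and the summed level was 1663 to 2179 CPM in cKO and 1918 to 2177 CPM in cHet. Aif1, Csf1r, P2ry12 and Tmem119 were among the 17 that did not pass. Markers of neurons from neighbouring regions (15 tested) gave 1 higher, Rgs9, and 1 lower, Adcy5, which both lost their call without cKO 1, cKO 2 or cHet 1, Rgs9 also without cHet 2 or cHet 4 and Adcy5 without cHet 3. These 15 markers had a share called of 13.3% and a summed level of 299 to 321 CPM in cKO and 320.0 to 338 CPM in cHet. Of 5 glutamatergic markers tested Slc30a3 was lower, a call lost without cKO 2, cHet 1 or cHet 2, and their summed level was 131 to 159.6 CPM in cKO and 133 to 174 CPM in cHet. Of 8 choroid plexus and ependymal markers 0 were called by edgeR or DESeq2 (3 had an unadjusted p below 0.05), with a summed level of 31.5 to 40.6 CPM in cKO and 32.8 to 37.1 CPM in cHet and Tmem212 at 0 tags.

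**Figure D3:**
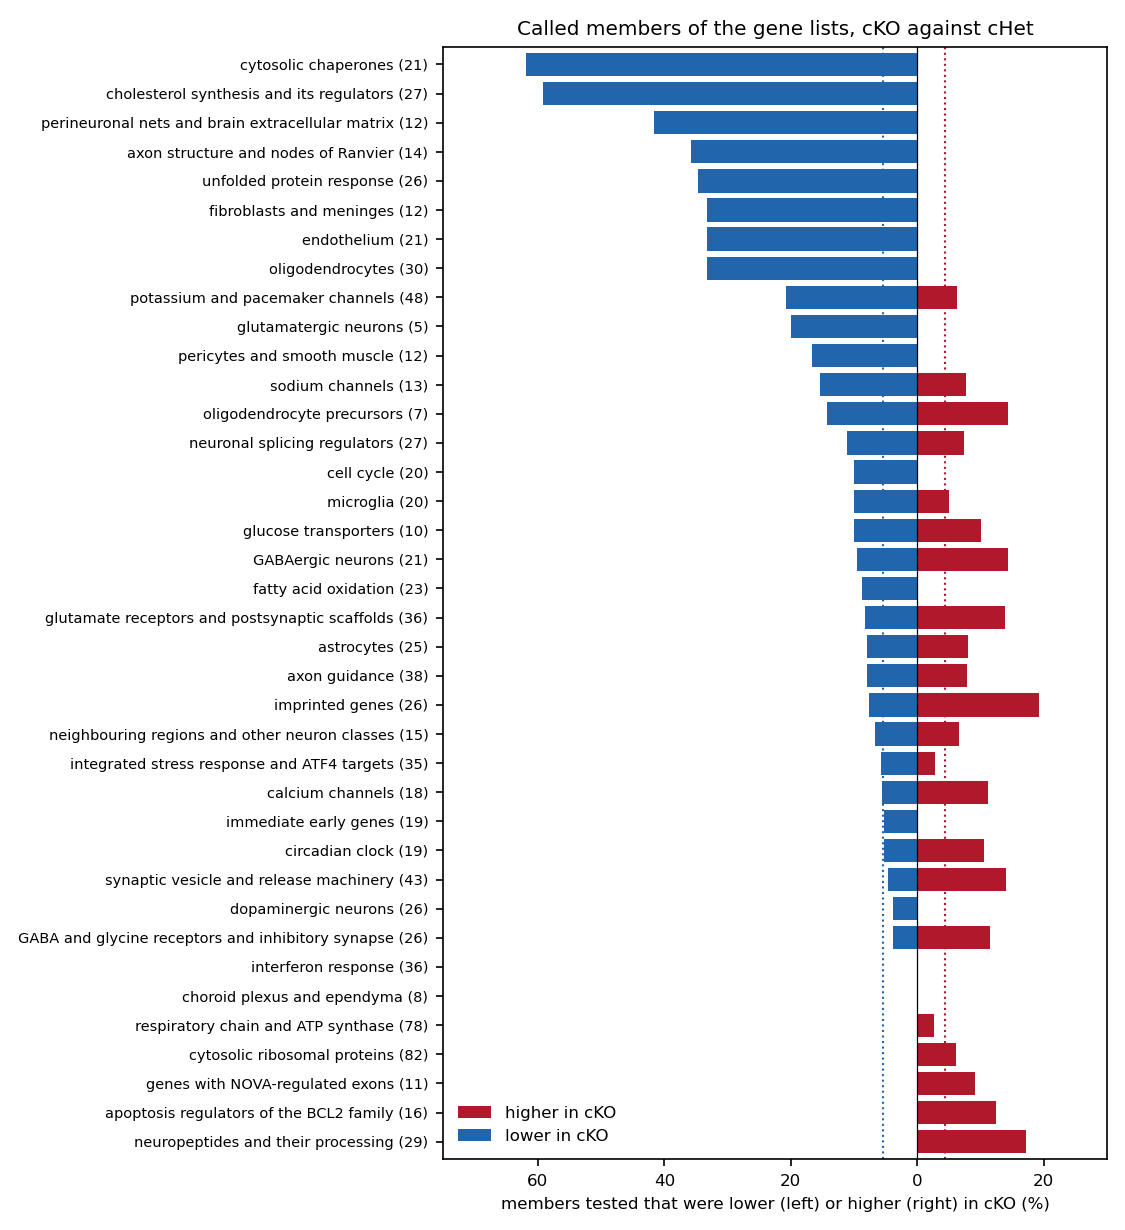
Share of the tested members of each gene list (number tested in brackets) that were called lower (blue, to the left) or higher (red, to the right) in cKO; dotted lines mark the shares over all genes tested, 5.46% lower and 4.35% higher. Lists with at least 5 tested members are shown, with chaperones and cholesterol synthesis at the top. The lists were chosen with earlier results of these data known.

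Impact, named in the study design as a target of Nova1, codes for an inhibitor of GCN2, the kinase that phosphorylates eIF2 when amino acids are short. It measured 284, 349.6, 291 and 336 CPM in cKO libraries 1 to 4, against 417, 432, 439 and 350.3 CPM in cHet libraries 1 to 4 (log2 fold change -0.38, SE 0.09, adjusted p = 0.0145). The highest cKO value stood just below the lowest cHet value. Of 35 genes of the integrated stress response and ATF4 targets tested, 1 was higher and 2, Impact included, lower, a share of 8.57% beside 9.81% of all genes tested. Slc7a5, an amino acid transporter, measured 164, 161, 152 and 119 CPM in cKO libraries 1 to 4, against 96.97, 99.98, 95.7 and 93.9 CPM in cHet libraries 1 to 4 (log2 fold change 0.62, SE 0.09, adjusted p = 0.00106). Atf4 measured 67.6 ± 1.74 CPM in cKO and 73.7 ± 1.46 CPM in cHet (log2 fold change -0.12, SE 0.06, adjusted p = 0.216) and did not pass. Asns measured 112 ± 9.82 CPM in cKO and 110.3 ± 5.02 CPM in cHet (log2 fold change 0.02, SE 0.07, adjusted p = 0.893) and did not pass either. Mthfd2 was lower at a log2 fold change of -0.45, a call lost without cKO 1, cHet 1 or cHet 4.

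Among 27 regulators of neuronal splicing, Nova1, Khdrbs3 and Elavl3 were lower and Nova2 and Ptbp2 higher (18.5%, beside 9.81% of all genes tested). Ptbp2 measured 128 ± 11.2 CPM in cKO and 105 ± 3.94 CPM in cHet (log2 fold change 0.29, SE 0.07, adjusted p = 0.0195), a call lost without cKO 1, cKO 2, cHet 1 or cHet 2. Khdrbs3 lost its call without cKO 1 or cKO 2, and Elavl3 without cKO 1, cKO 2, cKO 4, cHet 1, cHet 2 or cHet 4. Of 11 genes with exons known to be regulated by NOVA, 1 was called, Glra2, a share of 9.09% beside 9.81% of all genes tested. An unadjusted p below 0.05 was found for 3 of the 11, beside 3757 of all 14858 genes tested. These are gene levels, and exons were not measured.

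The other brain regions served to ask which changes differ in the substantia nigra. In a fit of all 32 libraries, the change in substantia nigra minus the mean change in hypothalamus, periaqueductal gray and caudate putamen passed the threshold for 13 of 16042 genes (0.081%), 5 with a more positive and 8 with a more negative change (5 and 4 under relative log expression scaling, 20 and 21 with DESeq2). Htr2c, the serotonin 2C receptor, measured 225, 223, 198 and 218 CPM in cKO libraries 1 to 4, against 126, 142, 133 and 105 CPM in cHet libraries 1 to 4. Its log2 fold change in that fit was 0.76 (SE 0.08) in substantia nigra, against 0.14 (SE 0.08) in hypothalamus, 0.21 (SE 0.08) in periaqueductal gray and 0.24 (SE 0.08) in caudate putamen (difference 0.57, SE 0.09, adjusted p = 0.00095). Pde2a, a phosphodiesterase of cAMP and cGMP, measured 656, 566, 632 and 555 CPM in cKO libraries 1 to 4, against 471, 479, 406 and 430.1 CPM in cHet libraries 1 to 4. Its log2 fold change was 0.42 (SE 0.06) in substantia nigra, against 0.02 (SE 0.06) in hypothalamus, -0.26 (SE 0.06) in periaqueductal gray and -0.15 (SE 0.06) in caudate putamen (difference 0.55, SE 0.07, adjusted p = 4.9e-05). The difference of both held in each fit with a substantia nigra library left out, and the genotypes of substantia nigra did not overlap for either.

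Dgkg, the diacylglycerol kinase gamma, measured 10.7, 13.4, 15.3 and 13.8 CPM in cKO libraries 1 to 4, against 22.5, 24.6, 28.8 and 26.5 CPM in cHet libraries 1 to 4. Every cKO value lay below every cHet value. Its log2 fold change was -0.95 (SE 0.10) in substantia nigra, against -0.08 (SE 0.08) in hypothalamus, -0.18 (SE 0.08) in periaqueductal gray and -0.14 (SE 0.08) in caudate putamen (difference -0.82, SE 0.11, adjusted p = 4.9e-05). This difference too held in each fit with a substantia nigra library left out. The other genes with a more positive change were Penk (difference 0.62, SE 0.11, adjusted p = 0.0161), the AMPA receptor auxiliary gene Cacng5 (difference 0.71, SE 0.14, adjusted p = 0.0176) and the adhesion gene Cntnap3 (difference 1.14, SE 0.23, adjusted p = 0.0296). Those with a more negative change included the glycosyltransferase gene Wbscr17 (difference -0.59, SE 0.11, adjusted p = 0.0115), the heparan sulphate sulphotransferase gene Hs6st2 (difference -0.51, SE 0.09, adjusted p = 0.0161) and the ubiquitin ligase gene Rnf157 (difference -0.32, SE 0.07, adjusted p = 0.0399). 4930506M07Rik (difference -0.50, SE 0.10, adjusted p = 0.031) and Ptchd2 (difference -0.56, SE 0.11, adjusted p = 0.0399) followed, with Synm and Rasal1, which are outside the rule for naming genes, at -0.52 and -0.56. All 13 but Rasal1 were also called in the substantia nigra alone. The title of 1 caudate putamen cKO library names periaqueductal gray while its tissue tag, used here, names caudate putamen, and without it 9 genes passed. The count was 8 without cKO 1, 6 without cKO 2, 5 without cKO 3, 6 without cHet 1 and 23 without cHet 2. The 10 genes other than Htr2c, Pde2a and Dgkg each lost the call without at least 1 library, and of the libraries of the other regions only that caudate putamen library was left out.

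**Figure D4:**
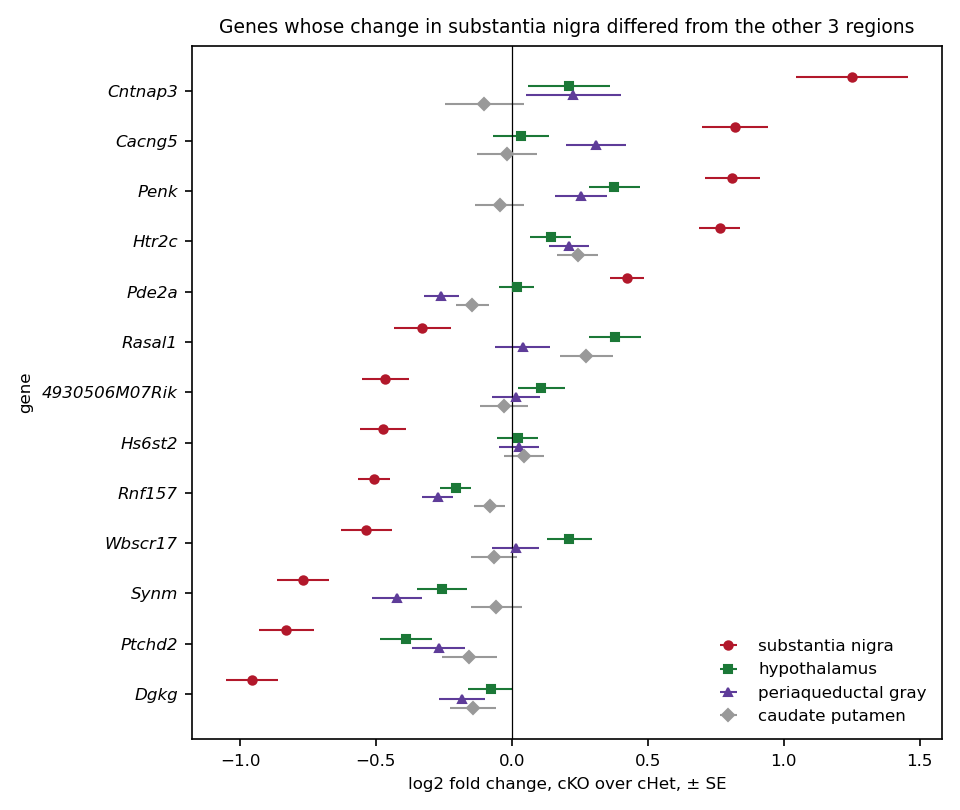
Log2 fold change of cKO over cHet with its SE, in the fit over 4 regions, for the 13 genes whose change in substantia nigra (red circles) differed from the mean of hypothalamus (green squares), periaqueductal gray (purple triangles) and caudate putamen (grey diamonds). Dgkg is near -0.95 in substantia nigra and between -0.18 and -0.08 in the other 3, and Htr2c is at 0.76 against 0.24 or less.

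The same fit gives the leading changes in every region. Rbm3 had log2 fold changes of 1.62 (SE 0.12) in hypothalamus, 1.56 (SE 0.12) in periaqueductal gray and 1.53 (SE 0.12) in caudate putamen, beside 1.59 (SE 0.12) in substantia nigra. Hsph1 had -0.94 (SE 0.12) in hypothalamus, -0.91 (SE 0.12) in periaqueductal gray and -0.71 (SE 0.12) in caudate putamen, beside -1.004 (SE 0.12) in substantia nigra. Nova1 itself had -0.61 (SE 0.15) in hypothalamus, -0.30 (SE 0.15) in periaqueductal gray and -1.86 (SE 0.17) in caudate putamen, beside -1.15 (SE 0.16) in substantia nigra. The 1457 calls in substantia nigra come from the fit of its 8 libraries, while calls in the other regions come from the fit of 32. The fits take the spread from different sets of libraries. Of the 1457 genes, 646 were called in hypothalamus, all with the same sign. These were 44.3% of the 1457 and 45.3% of the 1427 calls there (8.9% of the genes tested). In periaqueductal gray 821 were called (820 with the same sign), 56.3% of the 1457 and 43.1% of 1903 (11.9%). In caudate putamen 497 were called (492 with the same sign), 34.1% of the 1457 and 32.1% of 1547 (9.64%). In all 4 regions with the same sign 300 genes were called, 117 higher and 183 lower, and 425 were called in substantia nigra and in none of the other 3. A call in a single region is no test of a difference, and the test of the difference gave the 13 genes above.

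Ribosome-bound RNA of whole brain at P0 (6 cKO and 6 cHet libraries) was used by the study to look at inhibitory neurons of newborn mice. There 4 of 13009 genes were called (0.0307%). These libraries held 7.38 to 25.4 M tags. Rn45s made up 19.2% to 25.6% of the tags in cKO and 13.8% to 23.1% in cHet, and its part in the P0 results was not tested. Nova1 measured 13.4 ± 2.61 CPM in cKO and 106.3 ± 9.33 CPM in cHet (SD, n = 6 each; log2 fold change -3.03, SE 0.11, adjusted p = 4.0e-14). Impact measured 17.5 ± 1.54 CPM in cKO and 32.3 ± 4.26 CPM in cHet (log2 fold change -0.87, SE 0.09, adjusted p = 3.9e-05). Of 1310 genes called in substantia nigra and tested there, 3 were called: Nova1, Impact and Dzip1, a cilium gene (log2 fold change -0.41, SE 0.05, adjusted p = 0.000193). In substantia nigra Dzip1 measured 104, 92.7, 92.98 and 101 CPM in cKO libraries 1 to 4, against 119, 144, 121 and 124 CPM in cHet libraries 1 to 4 (log2 fold change -0.38, SE 0.07, adjusted p = 0.00711). Its cKO values lay below its cHet values. Rbm3 (log2 fold change 0.10, SE 0.08, adjusted p = 0.806), Cirbp (log2 fold change -0.01, SE 0.06, adjusted p = 0.973) and Hsph1 (log2 fold change -0.15, SE 0.07, adjusted p = 0.642) did not pass at P0.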

How the data were processed

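Tissue RNA was purified by Trizol and RNeasy Mini kits, selected for polyA and prepared with the TruSeq kit, per the labels. The submitters' processing notes name mm10 and edgeR, while the aligner, the counting and its use of strand are unknown (not given in the sources used here). Each deposited table lists 23038 genes with a tag number and an RPKM value. The deposited tag numbers are partly fractional and were taken as estimated counts and rounded for the tests. RPKM values, as deposited, are scaled tag numbers and were left out.

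The quasi-likelihood F test of edgeR 4.0.16 was used (R 4.3.3, TMM scaling, filterByExpr at a minimum count of 10 and total of 15, Benjamini-Hochberg adjustment). CPM refers to the TMM-scaled library. SE is the absolute log2 fold change divided by the square root of F. Substantia nigra was fitted on its 8 libraries, the contrast with the other 3 regions on 32, and P0 TRAP (translating ribosome affinity purification) on 12. The script was tested on simulated data. Alternatives were DESeq2 1.42.0, other scalings and filters, a replicate block and leaving out each substantia nigra library.

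The members and gene lists were chosen with earlier results of these data known. Named genes were Nova1, Nova2, Impact and Rbm3, the identity genes Th, Slc6a3, Slc18a2, Gad1, Gad2, Slc32a1 and Pvalb, the 12 called genes with the largest change each way (at least 5 CPM in a genotype, no overlap), up to 4 called members of each of 41 lists with the smallest adjusted p, and up to 6 genes each way of the contrast. Other called members were named to complete a count, and 36 genes were picked after their values were seen. Some genes these rules chose are not reported here. Of 1021 list entries 1016 were found in the files, and 22959 gene IDs matched RefSeq GRCm38.p6.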

Additional observations from a re-analysis of the deposited data

Results flagged for a closer look

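Single libraries stood apart from the other 3 of their genotype for 18 of 352 sets of 4 values of the named genes, by the gap to the nearest library over the whole range (Dixon's 95% critical value), and chance gives about 1 in 20. Of these, 4 were cKO 1, 1 was cKO 3 and 1 was cKO 4, while 7 were cHet 4, 2 were cHet 2, 2 were cHet 3 and 1 was cHet 1. In cKO 1, Calcr was high at 9.25 CPM and Cd74 at 33.3 CPM, while Scn4b was low at 29.4 CPM and Hmgcs1 at 782 CPM. In cKO 3, the netrin receptor gene Unc5d was low at 13.7 CPM, and in cKO 4 Col1a1 was low at 39.3 CPM. In cHet 4, Pvalb was high at 208.9 CPM, Cryab at 304 CPM and Sgce at 62.8 CPM. The same library was low for Th at 862 CPM, Glra2 at 8.98 CPM, Grin2d at 33.6 CPM and Dlgap1 at 121 CPM. The cHet 2 library was high for fibronectin, Fn1, at 133 CPM and low for Lect1 at 9.11 CPM. The cHet 3 library was high for Nptx2 at 1.73 CPM and low for the ribosomal protein gene Rps2 at 212 CPM, and cHet 1 was high for the intermediate filament gene Ina at 134 CPM.

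The change in substantia nigra differed from the mean change of the other 3 regions, by the test of that difference, for 13 genes. On the log2 scale the difference was 0.57 for Htr2c, 0.62 for Penk, 0.71 for Cacng5, 0.55 for Pde2a and 1.14 for Cntnap3. It was -0.82 for Dgkg, -0.59 for Wbscr17, -0.51 for Hs6st2, -0.50 for 4930506M07Rik, -0.32 for Rnf157, -0.56 for Ptchd2, -0.52 for Synm and -0.56 for Rasal1.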

How the results depend on the processing

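Of 170 called genes that were named or singled out, 107 passed under every alternative and 63 lost the call under at least 1, and 0 changed sign. The number of genes called in substantia nigra was 889 with a replicate block, against 1457, with 865 genes shared; same-numbered cKO and cHet libraries did not deviate together (correlations of 0.05, -0.04, -0.08 and -0.12), so the numbers were not taken as pairs. Leaving out single libraries gave 705 to 1483 calls. The contrast with the other regions gave 41 genes with DESeq2 and 5 to 23 on leaving out single libraries. It gave 9 with a block for each replicate number within a region, which does not link libraries across regions. Mice shared between regions, if any, were not modelled. P0 TRAP gave 14 with DESeq2. DESeq2 gave 1810 calls in substantia nigra. Uncalled log2 fold changes changed sign for Th (0.000373 with upper-quartile scaling, and -0.0762 to 0.0669 without single libraries), for Slc18a2 (-0.0302 without cKO 4, the range without single libraries being -0.0302 to 0.171) and for Gad2 (-0.00174 with DESeq2, -0.00793 without a filter, and -0.0609 to 0.0697 without single libraries). The cause of these shifts was not tested. Genes removed by the filter on low counts were not tested, so a change in them was not detectable at this depth.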

Other observations

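Imprinted genes, ligands and receptors of axon guidance, and genes of the clock held further called members. Their shares called were 26.9%, 15.8% and 15.8%, beside 9.81% of all genes tested. Of 26 imprinted genes 5 were higher and 2 lower. Calcr, the calcitonin receptor gene, measured 9.25, 5.42, 5.16 and 5.47 CPM in cKO libraries 1 to 4, against 2.22, 2.83, 2.58 and 1.38 CPM in cHet libraries 1 to 4 (log2 fold change 1.47, SE 0.24, adjusted p = 0.00294). Nnat, the proteolipid gene neuronatin, measured 338 ± 48.5 CPM in cKO and 251 ± 32.5 CPM in cHet. Magel2 measured 6.42 ± 1.44 CPM in cKO and 4.04 ± 0.646 CPM in cHet, and Nap1l5 and Ndn, with log2 fold changes of 0.26 and 0.21, were the others that rose. Sgce, the epsilon-sarcoglycan gene, was lower with 44.5 ± 3.29 CPM in cKO and 55.2 ± 5.05 CPM in cHet. The count of higher genes was 2 without cKO 1, cKO 2 or cHet 1 and 3 without cHet 3 or cHet 4. Of 38 axon guidance genes 3 were higher and 3 lower, with 1 higher without cKO 3 or cHet 4, and none of the 3 without cKO 2 or cHet 1. The netrin receptor genes went apart, with Unc5a at 17.999 ± 1.83 CPM in cKO and 25.7 ± 1.47 CPM in cHet (log2 fold change -0.51, SE 0.09, adjusted p = 0.00463), Unc5b at 104 ± 10.7 CPM in cKO and 143 ± 14.96 CPM in cHet (log2 fold change -0.46, SE 0.09, adjusted p = 0.00597) and Unc5d at 19.5 ± 3.88 CPM in cKO and 11.9 ± 2.74 CPM in cHet (log2 fold change 0.71, SE 0.17, adjusted p = 0.017), the last a call lost without cKO 1, cKO 2 or cHet 1. Of 19 clock genes, Cry2, a repressor of the clock, was higher with 122, 112, 96.6 and 95.7 CPM in cKO libraries 1 to 4, against 83.7, 81.7, 79.9 and 73.7 CPM in cHet libraries 1 to 4 (log2 fold change 0.42, SE 0.08, adjusted p = 0.00745). Dbp, an output of the clock, was lower with 25.5, 25.7, 35.8 and 29.4 CPM in cKO libraries 1 to 4, against 36.8, 42.99, 43.6 and 45.3 CPM in cHet libraries 1 to 4 (log2 fold change -0.53, SE 0.11, adjusted p = 0.00791). Neither overlapped between the genotypes. Cry1 was higher at 0.41, a call lost without cKO 1, cKO 2, cHet 1 or cHet 2.

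Lists of metabolic, cell-cycle and cell-death genes had shares of called members on both sides of the 9.81% of all genes tested. The share was 20% for sugar transporters, 12.5% for the BCL2 family and its partners, 10% for the cell cycle, 8.70% for fatty acid oxidation, 6.10% for cytosolic ribosomal proteins and 2.56% for the respiratory chain. Of 10 sugar transporter genes, Slc2a4, the insulin-regulated glucose transporter GLUT4, measured 36.1, 26.01, 24.9 and 19.1 CPM in cKO libraries 1 to 4, against 12.5, 11.4, 12.7 and 15.1 CPM in cHet libraries 1 to 4 (log2 fold change 1.04, SE 0.16, adjusted p = 0.00175). Slc2a5, the fructose transporter, which in brain marks microglia, measured 8.22, 9.45, 6.67 and 9.45 CPM in cKO libraries 1 to 4, against 12.2, 13.6, 16.4 and 18.7 CPM in cHet libraries 1 to 4 (log2 fold change -0.84, SE 0.15, adjusted p = 0.00424). The cKO values lay above the cHet values for Slc2a4 and below them for Slc2a5. Of 78 genes of the respiratory chain 2 were higher, among them Cox6a2, an isoform of muscle and of parvalbumin neurons, with 2.40, 3.13, 3.81 and 2.89 CPM in cKO libraries 1 to 4, against 1.15, 0.527, 1.23 and 1.67 CPM in cHet libraries 1 to 4 (log2 fold change 1.43, SE 0.30, adjusted p = 0.0105). Of that list 4 were higher without cKO 4 and 1 without cKO 1, cKO 2, cKO 3 or cHet 1. Of 82 cytosolic ribosomal protein genes, many of which have near-identical copies, 5 were higher, with 10 without cKO 4, 1 without cKO 1, 2 without cHet 1 or cHet 2 and 3 without cKO 2, cKO 3 or cHet 3. Of 16 genes of the BCL2 family and its partners, 2 were higher, among them the pro-apoptotic gene Bcl2l11, known as BIM, with 15.1, 13.4, 12.4 and 11.5 CPM in cKO libraries 1 to 4, against 9.56, 8.39, 7.65 and 8.41 CPM in cHet libraries 1 to 4 (log2 fold change 0.62, SE 0.12, adjusted p = 0.00692). Of 23 genes of fatty acid oxidation 2 were lower, Cpt1a and Hadha, and without cHet 1 neither passed. Of 20 cell cycle genes Top2a and Mcm5 were lower, and neither passed without cKO 1 or cHet 3. Of 19 immediate early genes Arc was lower at -0.44 (5.26% of the list called), a call lost when any library other than cHet 2 was left out. Of 36 interferon response genes 0 were called by edgeR and 1 by DESeq2 (2 had an unadjusted p below 0.05). Of 4 sex-linked genes tested, the Y-linked Eif2s3y was higher with 53.5 ± 5.24 CPM in cKO and 34.3 ± 8.41 CPM in cHet (log2 fold change 0.64, SE 0.14, adjusted p = 0.0134). The other 3, also Y-linked, did not pass, and Xist was removed by the filter on low counts. The summed level of the list was 223 to 262 CPM in cKO and 206 to 212 CPM in cHet.

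Some genes outside the lists were picked after their values were seen. Cd74, the invariant chain of antigen presentation, measured 33.3, 27.2, 27.9 and 27.9 CPM in cKO libraries 1 to 4, against 16.2, 14.3, 14.1 and 14.5 CPM in cHet libraries 1 to 4 (log2 fold change 0.98, SE 0.09, adjusted p = 0.000178). Arg1, which codes for arginase 1, had few tags, at 3.25, 1.40, 1.96 and 1.86 CPM in cKO libraries 1 to 4, against 0.185, 0.288, 0.0423 and 0.173 CPM in cHet libraries 1 to 4, with all cKO values above all cHet values (adjusted p = 0.000465).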
